A study of Mus musculus with 12 samples.

Results

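The interferon-inducible GTPases followed here are 10 mouse genes of the guanylate-binding protein (GBP) and immunity-related GTPase (IRG) families: Gbp2, Gbp3, Gbp5, Gbp7, Irgm1, Irgm2, Igtp, Iigp1, Tgtp1 and Ifi47. They were taken by symbol from the 39179 genes of a count table of sorted pancreatic stellate cells (PSCs), the fibroblast-like cells of the pancreas. The 10 genes were chosen with their levels in these same libraries known, so their differences between cultures are given as a description and without a test. PSCs of line PSC C2, an SV40-immortalised clone labelled with mCherry and of strain C57BL/6 by the labels, were grown for 72 h in 3 ways and then sorted as mCherry-positive cells, with EGFP-positive PCCs and TagBFP-positive MØs gated out. Mono-PSCs grew alone, 2W-PSCs grew with pancreatic cancer cells (PCCs), and 3W-PSCs grew with PCCs and macrophages (MØs). The PCCs were a line of mouse pancreatic cancer cells that carried p48-Cre and a floxed p53 allele, and the MØs were RAW264.7 cells, a mouse macrophage line. Each culture gave 4 libraries, named here by culture and replicate number, and all PSCs came from 1 clone, so the spread is that between cultures and not between animals.

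GBPs and IRGs are cell-autonomous defence proteins that most cell types make in response to interferons. Interferon receptors act through JAK kinases and STAT factors, and STAT and IRF factors bind the GAS and ISRE elements of these genes. The proteins gather on the vacuoles of intracellular pathogens and on cytosolic bacteria, break the membranes there and expose microbial products to caspases and inflammasomes. GBPs are large, dynamin-like GTPases. IRGs fall into the GMS regulators, Irgm1, Irgm2 and Igtp, which sit on host membranes and hold the others inactive, and the GKS effectors, among them Iigp1, Tgtp1 and Ifi47, which load onto vacuoles.

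The GBP members lie together on chromosome 3, and most of the IRG members on chromosome 11. Of the 10 genes, 8 had an entry in a table of RefSeq promoters on GRCm38.p6, each 300 bases long, from 250 before to 50 after a start site. The letters GAAANNGAAA, the core of an ISRE, were searched on both strands and stood in a promoter of 7 of the 8 genes, and in 3.44% of all 32851 promoters of that table. The letters TTCNNNGAA, which mark a GAS element and read alike on both strands, stood in 4 of the 8 and in 8.30% of all promoters. Those 4 (Gbp7, Irgm2, Igtp and Tgtp1) held both, against 0.454% of all promoters. The members were counted by gene, with a match in any promoter of the gene, and the whole table by promoter, so these shares differ in unit. Such a match describes letters and is not a shown binding site. The following promoters were picked to show an ISRE alone, GAS and ISRE together, 2 overlapping ISREs and neither, with the matched letters in capitals and each written 5′ to 3′ on the strand of its gene.
Gbp2 (chr3:142620413-142620712, plus strand): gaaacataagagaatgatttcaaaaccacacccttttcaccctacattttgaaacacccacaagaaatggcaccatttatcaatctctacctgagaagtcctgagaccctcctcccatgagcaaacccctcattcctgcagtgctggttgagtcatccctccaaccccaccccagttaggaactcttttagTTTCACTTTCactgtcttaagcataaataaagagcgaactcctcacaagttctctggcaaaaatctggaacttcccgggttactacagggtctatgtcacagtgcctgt
Gbp7 (chr3:142530086-142530385, plus strand): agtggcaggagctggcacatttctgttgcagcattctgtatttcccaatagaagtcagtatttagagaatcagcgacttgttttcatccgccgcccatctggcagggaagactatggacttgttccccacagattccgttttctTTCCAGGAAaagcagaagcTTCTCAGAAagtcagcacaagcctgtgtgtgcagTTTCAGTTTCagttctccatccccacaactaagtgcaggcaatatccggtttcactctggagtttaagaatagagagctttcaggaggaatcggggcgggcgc
Igtp (chr11:58199306-58199605, plus strand): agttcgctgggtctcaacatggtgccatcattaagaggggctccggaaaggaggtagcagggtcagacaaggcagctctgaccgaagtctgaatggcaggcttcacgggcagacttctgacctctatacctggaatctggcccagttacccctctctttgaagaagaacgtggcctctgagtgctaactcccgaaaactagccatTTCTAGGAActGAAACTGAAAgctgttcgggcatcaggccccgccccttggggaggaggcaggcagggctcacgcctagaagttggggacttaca
Irgm1 (chr11:48871371-48871670, minus strand): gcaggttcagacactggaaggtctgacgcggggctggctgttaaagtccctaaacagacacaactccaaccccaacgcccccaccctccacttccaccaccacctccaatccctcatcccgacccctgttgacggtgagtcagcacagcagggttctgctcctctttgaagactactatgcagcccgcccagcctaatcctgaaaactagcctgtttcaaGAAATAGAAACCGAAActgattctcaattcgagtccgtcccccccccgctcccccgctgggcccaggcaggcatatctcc
Ifi47 (chr11:49076337-49076636, plus strand): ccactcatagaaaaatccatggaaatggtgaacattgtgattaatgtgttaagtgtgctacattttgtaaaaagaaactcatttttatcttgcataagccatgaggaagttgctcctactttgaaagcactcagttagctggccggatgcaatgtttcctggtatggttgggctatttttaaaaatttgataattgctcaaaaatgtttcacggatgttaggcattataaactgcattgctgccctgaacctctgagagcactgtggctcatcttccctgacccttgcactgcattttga

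In the Gbp2 promoter the ISRE letters ended 50 bases before the start site. In that of Gbp7 the ISRE began 53 bases before the start, downstream of 2 GAS matches at 106 and 87 bases. The GAS and ISRE of Igtp were 2 bases apart, and the same pair of motifs at the same spacing stood in the promoters of Irgm2 and Tgtp1. The 2 ISRE matches of Irgm1 shared 4 letters. No match to either motif was found in this window of Ifi47, which says nothing of other windows.

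Total counts per library ranged from 4561817 to 8093368. Levels are in CPM, counts scaled to a common library size with TMM factors, and since the 3′ libraries give about 1 fragment per transcript, they were compared between genes without a length correction. Replicate 2 of 2W-PSCs stood apart, with a Spearman correlation over genes of 0.857 to 0.919 with the other 2W-PSC libraries, against 0.948 to 0.971 among mono-PSCs and 0.972 to 0.987 among 3W-PSCs. The summed level of 10 stellate cell markers was lower in every 3W-PSC library, at 9203 to 11476 CPM, than in any library of mono-PSCs, at 12625 to 15459 CPM, or of 2W-PSCs, at 15888 to 23776 CPM. Col1a1, Col1a2, Sparc and Vim were abundant and Des was near 0. Of 9 tested markers, 5 (Col1a1, Col3a1, Sparc, Thy1 and Lgals1) were called lower from 2W-PSCs to 3W-PSCs, as were 4.95% of all genes tested. Vim, Pdgfrb and Fn1 were near level there, at -0.08 ± 0.181, -0.02 ± 0.408 and 0.06 ± 0.187 log2 units (SE). From mono-PSCs to 3W-PSCs, 4 of 10 were called lower and 1 higher, against 13.0% and 13.4% of all genes tested. Markers of the partner cells also differed between cultures: 14 macrophage markers summed to between 2.46 and 8.83 CPM in mono-PSCs, between 4.65 and 11.8 in 2W-PSCs and between 26 and 65.6 in 3W-PSCs, and 12 epithelial markers to 0.484 to 2.46, 74.5 to 146 and 50.3 to 88.6 CPM. Of the macrophage markers, 6 were tested and 3 (Cd53, Mpeg1 and Cybb) were called higher from 2W-PSCs to 3W-PSCs, as were 5.73% of all genes tested. Adgre1 had no count in any library, and Ptprc, Tyrobp, Laptm5 and Spi1 had counts in 3W-PSCs alone. The epithelial sum came almost wholly from Krt7, Krt8, Krt18, Krt19 and Cdh1, the only 5 of the 12 with at least 10 counts in some library. Epcam had at most 3 counts. Whether these macrophage and epithelial counts came from partner cells or from the PSCs was not tested, nor was the part of any of these marker lists in the levels of the GTPases.

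In 3W-PSCs, the cultures with macrophages, 9 of the 10 genes stood above every 2W-PSC library and above every mono-PSC library. Of all genes tested, 11.5% lay above every 2W-PSC library and, in the other comparison, 13.7% above every mono-PSC library. The share above both was not counted, and the 10 genes were chosen with these levels known. Summed over the 10 genes, the level was 134 ± 7.51 CPM (SD, n = 4) in mono-PSCs, 254 ± 53.2 in 2W-PSCs and 950 ± 63.9 in 3W-PSCs. By library, the sums were 127, 138, 129 and 143 CPM in mono-PSCs, 236, 188, 285 and 307 CPM in 2W-PSCs, and 957, 887, 921 and 1036 CPM in 3W-PSCs. The 3 cultures did not overlap, and the step from 2W-PSCs to 3W-PSCs was 3.74-fold, or 3.44-fold without 2W-PSC replicate 2. The step from mono-PSCs to 2W-PSCs was 1.89-fold. In bulk RNA, more cells with these transcripts and more transcripts per cell cannot be told apart.

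**Figure D1:**
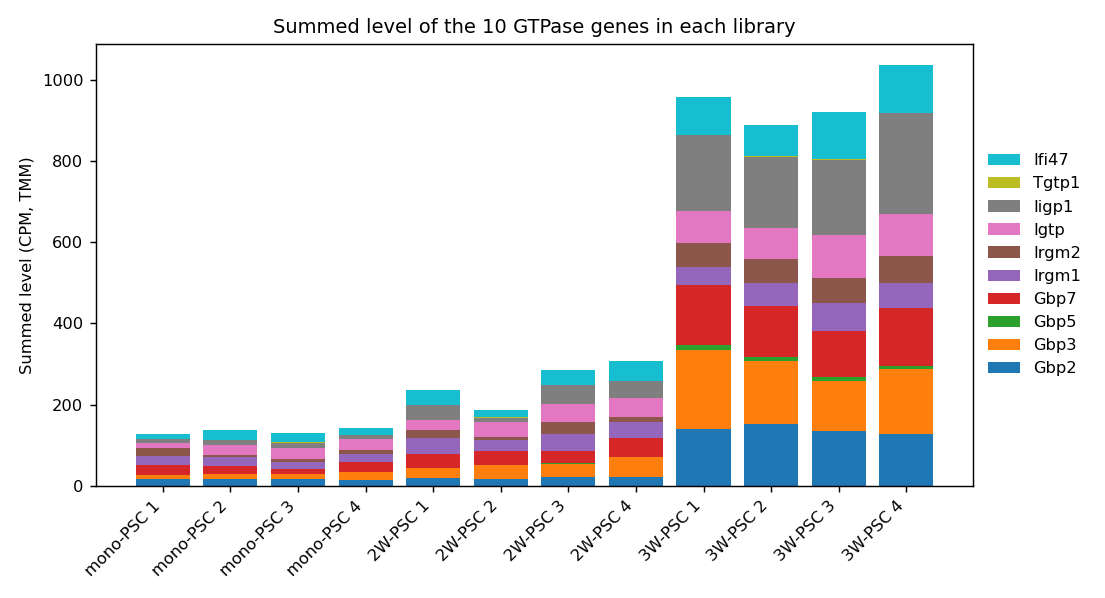
Stacked bars give the summed level of the 10 GTPase genes in each of the 12 PSC libraries, in CPM after TMM scaling from 0, with a colour for each gene. The 3W-PSC libraries lie between 887 and 1036 CPM and the others at or below 307 CPM.

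An edgeR quasi-likelihood fit over all genes, with an adjusted p under 0.05 as the call, tested 9 of the 10 genes between 3W-PSCs and 2W-PSCs and called 8 higher. Of all 11513 genes in that fit, 5.73% were called higher and 4.95% lower, and 11.5% had every 3W-PSC library above every 2W-PSC library, as did 9 of the GTPases. Between 3W-PSCs and mono-PSCs the fit tested and called 9, where 13.4% of 11551 genes were called higher and 13.0% lower, and 13.7% did not overlap upward. Between 2W-PSCs and mono-PSCs it tested 8 and called Gbp3 alone, where 0.839% of 11199 genes were called higher and 0.152% lower, and 3.29% did not overlap upward, against 3 of the GTPases. Nothing is read from these counts, because the genes were chosen on the same levels. The median log2 fold change of the tested GTPases was 1.88, 2.703 and 0.87 in the 3 comparisons, and that of all tested genes 0.0025, 0.0116 and 0.0195. The comparisons share libraries, so they are set side by side and are not independent.

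**Figure D2:**
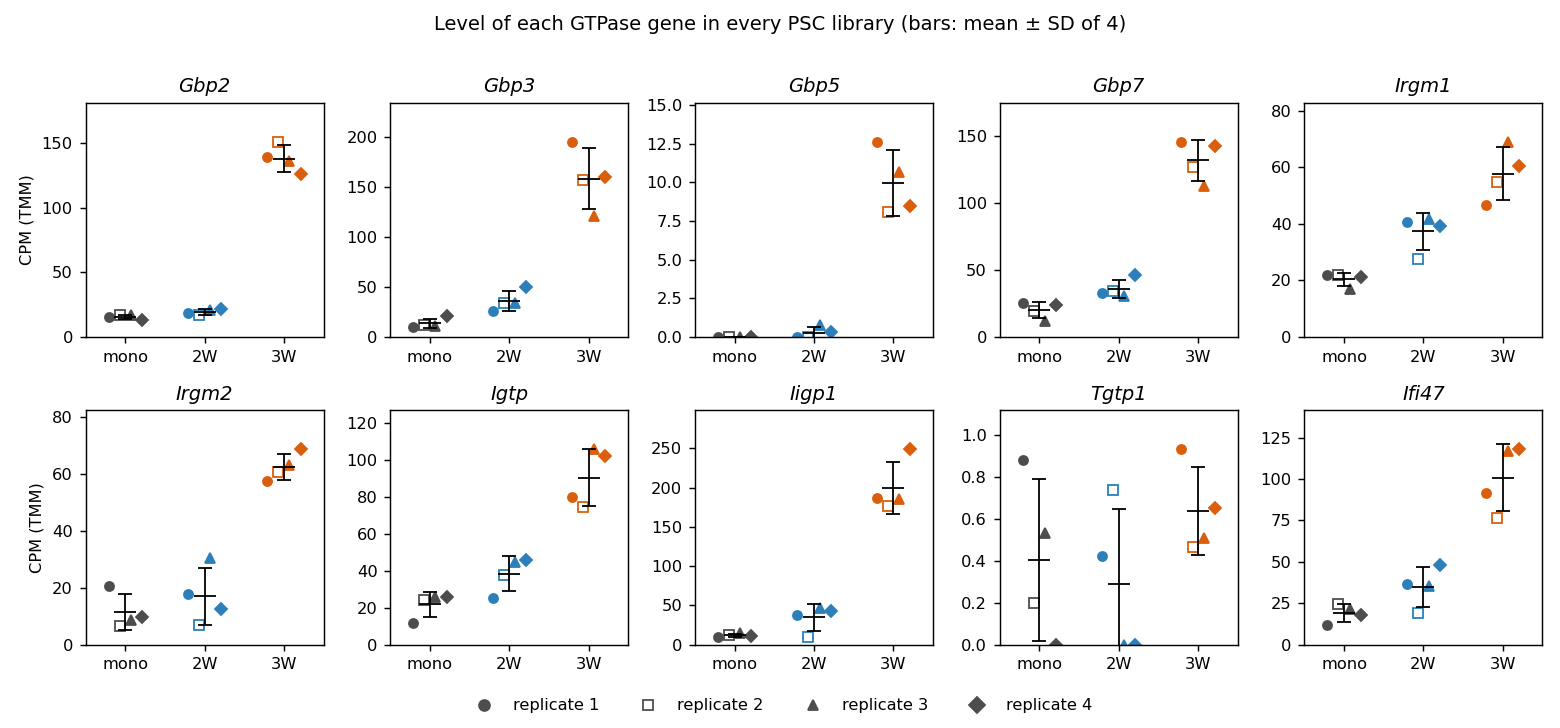
Each panel shows the level of a GTPase gene in CPM after TMM scaling, from 0, in mono-PSC (grey), 2W-PSC (blue) and 3W-PSC (orange) libraries, with symbols for replicates and black bars for mean ± SD of 4. In every panel except that of Tgtp1, all orange points lie above all blue and grey points.

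Gbp2, a prenylated GBP that coats the vacuoles of Toxoplasma and the surface of cytosolic bacteria, was level between the first 2 cultures and far higher in the third. It lies at chr3:142620602-142638008 on the plus strand. Its level was 15.8, 16.8, 16.9 and 13.4 CPM in mono-PSCs, 18.3, 16.7, 20.7 and 21.5 CPM in 2W-PSCs, and 139, 151, 136 and 126 CPM in 3W-PSCs. The first 2 cultures overlapped, and the lowest 3W-PSC library lay far above both. The log2 fold change was 2.84 ± 0.163 (SE) from 2W-PSCs to 3W-PSCs, but 0.31 ± 0.230 from mono-PSCs to 2W-PSCs. Its levels also had the smallest spread among the 8 well-counted members in all 3 cultures, with a coefficient of variation of 10.3%, 11.5% and 7.39%.

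Gbp3, a neighbour of Gbp2 whose loss together with the rest of this cluster weakens control of Toxoplasma in mice, rose in 2 steps. It lies at chr3:142560026-142573209. Mono-PSC libraries held 9.83, 12.1, 11.4 and 20.6 CPM, 2W-PSC libraries 26.5, 34.3, 33.6 and 50.1 CPM, and 3W-PSC libraries 196, 157, 121 and 160 CPM. No library of one culture overlapped another culture. The log2 fold change was 1.43 ± 0.294 from mono-PSCs to 2W-PSCs and 2.13 ± 0.227 from there to 3W-PSCs. Gbp3 was the only GTPase of the 10 called in the first of these steps, and that call was lost in 6 of the 8 fits that left out 1 library, namely replicates 1, 2 and 3 of mono-PSCs and replicates 1, 3 and 4 of 2W-PSCs. Those fits did not pair the libraries by replicate number. With a replicate block Gbp3 was called as well (edgeR adjusted p = 0.00958).

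Gbp7, a GBP described in macrophages as a partner of the NADPH oxidase and of autophagy proteins, lies at chr3:142530342-142550149. Its libraries held 25.1, 19.6, 12.1 and 23.7 CPM in mono-PSCs, 32.9, 34.6, 30.4 and 46.1 CPM in 2W-PSCs, and 146, 127, 113 and 143 CPM in 3W-PSCs. The cultures did not overlap. The larger difference was that from 2W-PSCs to 3W-PSCs, at 1.88 ± 0.181 log2 units, against 0.85 ± 0.262 from mono-PSCs to 2W-PSCs, which was not called. Its annotated exons share 637 bases with Gm43802 on the same strand.

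Gbp5, which promotes assembly of the NLRP3 inflammasome in macrophages, was seen almost in 3W-PSCs alone. The row of that name had 0 counts in all 4 mono-PSC libraries, 0, 0, 5 and 2 counts in 2W-PSCs, and 95, 70, 84 and 65 counts in 3W-PSCs. That is 12.6, 8.096, 10.7 and 8.44 CPM in 3W-PSCs, the lowest level of any GBP member. Against a floor of 3 counts in each mono-PSC library, the mean was at least 19.8-fold higher. The log2 fold change to 3W-PSCs from 2W-PSCs, with 7 counts in all, was 5.003 ± 0.652, and 4.14 with a larger prior count of 2. The identifier of this row, ENSMUSG00000040264, belongs to Gbp2b, a GBP of the same cluster, in the newer GENCODE M21 annotation, so neither a position nor a promoter is given for it, and which of the 2 genes the reads came from was not resolved. A separate row named Gbp2b held no count.

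**Figure D3:**
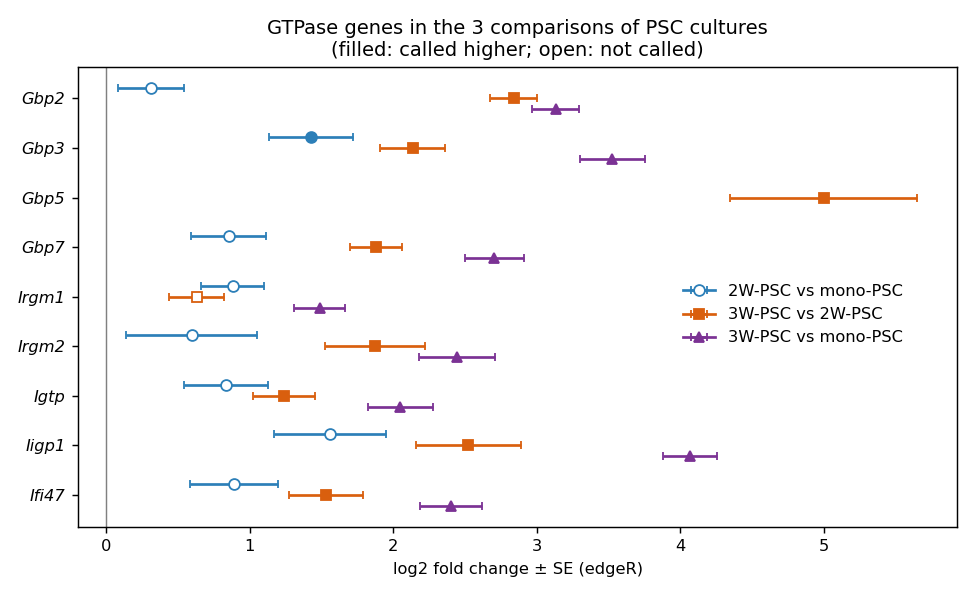
Points give the log2 fold change from edgeR with its SE as bars for the tested GTPases in the 3 comparisons, filled where the gene was called higher. Gbp5 against mono-PSCs, where all counts were 0, and Tgtp1 are not drawn, and Irgm1 is the only gene with an open square, at 0.63 between 3W-PSCs and 2W-PSCs.

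By summed level, the GMS regulators differed least of the 3 classes from 2W-PSCs to 3W-PSCs. The ratio was 2.27-fold for them, 4.78-fold for the GBPs and 4.32-fold for the GKS members. Without 2W-PSC replicate 2 it was 2.12-fold, 4.68-fold and 3.63-fold. Gene by gene the classes crossed. The GMS gene Irgm2 differed by 1.87 log2 units, near the GBP Gbp7 at 1.88 and above the GKS gene Ifi47 at 1.53. Irgm1, a regulator on Golgi and lysosomal membranes needed for resistance to mycobacteria, showed the smallest difference. It lies at chr11:48861968-48871683. The libraries held 21.9, 21.7, 17.0 and 21.2 CPM in mono-PSCs, 40.5, 27.5, 41.9 and 39.3 CPM in 2W-PSCs, and 46.6, 54.8, 69.0 and 60.3 CPM in 3W-PSCs. The cultures did not overlap, yet only the difference between 3W-PSCs and mono-PSCs, of 1.49 ± 0.180 log2 units, was called. The steps between were of like size, 0.88 ± 0.219 and 0.63 ± 0.194. Each was called in 3 of 14 alternative fits, without 2W-PSC replicate 2 among them.

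Irgm2, a Golgi-bound regulator that restrains the caspase-11 response, lies at chr11:58199618-58222782. Mono-PSC libraries held 20.5, 6.66, 8.70 and 9.68 CPM, 2W-PSC libraries 17.9, 6.87, 30.4 and 12.5 CPM, and 3W-PSC libraries 57.4, 60.7, 63.0 and 68.6 CPM. The first 2 cultures overlapped apart from 2W-PSC replicate 3, which lay above every mono-PSC library, and the third was tight, with a coefficient of variation of 7.56% after 54.6% and 59.4%. The log2 fold change was 1.87 ± 0.349 from 2W-PSCs to 3W-PSCs and 0.59 ± 0.454 from mono-PSCs to 2W-PSCs.

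Igtp, also called Irgm3, a regulator on the endoplasmic reticulum and lipid droplets, lies beside Irgm2 at chr11:58199556-58207591. It led the 10 genes in mono-PSCs with 11.4, 23.9, 25.9 and 25.8 CPM and in 2W-PSCs with 25.3, 37.8, 44.6 and 46.1 CPM. In 3W-PSCs it had 79.8, 74.7, 106 and 102 CPM and ranked behind Iigp1, 3 GBPs and Ifi47. All 3W-PSC libraries lay above the rest, and the other 2 cultures overlapped, with differences of 1.24 ± 0.218 and 0.84 ± 0.295 log2 units. Each 2W-PSC library lay above the mono-PSC library of the same number, and the difference was not called with a replicate block either (edgeR adjusted p = 0.0719). The annotated exons of Igtp and Irgm2 share 162 bases, though none of the 75-base windows in the last 500 bases of their transcripts occurred in another gene.

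Among the GKS effectors, Iigp1 (Irga6), a GTPase that polymerises on the Toxoplasma vacuole, had the highest mean level of all 10 genes in 3W-PSCs. It lies on chromosome 18, at 60376027 to 60392634 on the plus strand. Its level was 9.83, 12.3, 14.6 and 10.6 CPM in mono-PSCs, 37.7, 10.1, 47.0 and 43.2 CPM in 2W-PSCs, and 187, 177, 185 and 249 CPM in 3W-PSCs. Replicate 2 of the 2W-PSCs lay among the mono-PSC libraries, while the other 3 lay above them. The log2 fold change from mono-PSCs to 2W-PSCs was 1.56 ± 0.390, not called, and 1.85 ± 0.228 without that library, which was called. From 2W-PSCs to 3W-PSCs it was 2.52 ± 0.369 with and 2.23 ± 0.167 without it, called in both.

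Ifi47 (Irgd) lies at chr11:49076587-49096974 and held 11.9, 24.5, 21.7 and 18 CPM in mono-PSCs, 36.7, 19.1, 35.3 and 48.0 CPM in 2W-PSCs, and 91.8, 76.3, 117 and 118 CPM in 3W-PSCs. The 3W-PSC libraries lay above all others, and again replicate 2 of the 2W-PSCs lay within the range of mono-PSCs. Its log2 fold change from 2W-PSCs to 3W-PSCs was 1.53 ± 0.261. From mono-PSCs it was 0.89 ± 0.305, and 1.08 ± 0.2505 without 2W-PSC replicate 2, where it was called.

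Tgtp1 (Irgb6), at chr11:48985327-48994172, was hardly counted. It had 5, 1, 3 and 0 counts in mono-PSCs, 3, 3, 0 and 0 in 2W-PSCs, and 7, 4, 4 and 5 in 3W-PSCs, too few for the edgeR fits of the 3 comparisons, and neither alternative fit that tested it called it. The cultures overlapped. Of the 75-base windows in the last 500 bases of its transcripts, 76.7% also occur in Tgtp2 or Gm12185, so that reads from it may not be assigned to 1 gene, and its count is uncertain. The same share was at most 2.86% for the other members whose row and annotation carry the same name.

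The 2W-PSC libraries differed among themselves by gene. Replicate 2, set against the median of the other 3, had a ratio of 0.233 for Iigp1, 0.384 for Irgm2, 0.521 for Ifi47 and 0.678 for Irgm1. For Gbp3 and Gbp7 the ratios were 1.02 and 1.05, and for Gbp2 and Igtp 0.806 and 0.847. Among these 8 genes, the 4 lowest ratios were those of IRG genes other than Igtp. Gbp5, with 0 counts there, and Tgtp1, with 3, were counted too rarely for a ratio. It had the lowest total of the 12 libraries, 4561817 counts. The part of depth in the low ratios was not tested.

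**Figure D4:**
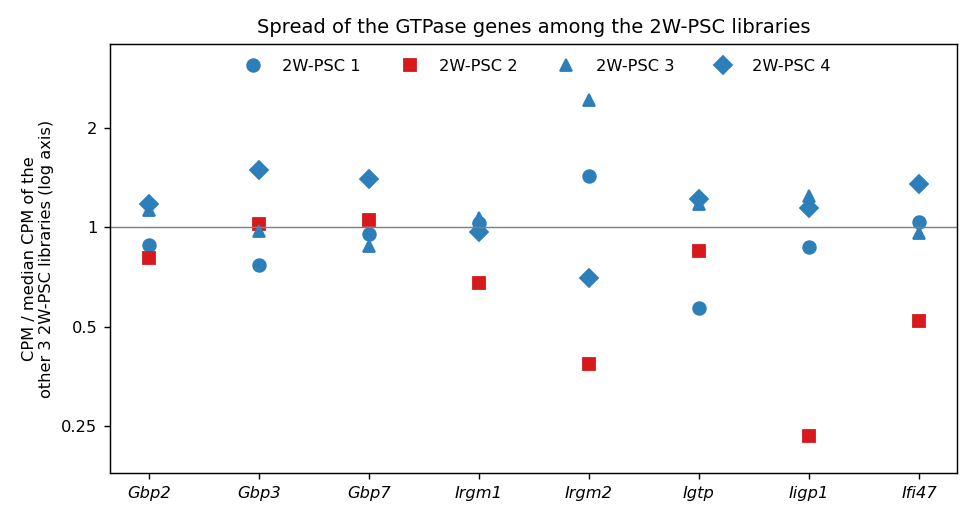
Each point is the level of a gene in a 2W-PSC library divided by the median of the other 3 2W-PSC libraries, on a log axis, for the 8 GTPases other than Tgtp1 and Gbp5. Replicate 2 (red squares) falls to 0.233 for Iigp1 and lies near 1 for Gbp3 and Gbp7.

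The order of the genes differed between cultures. In mono-PSCs, Igtp, Irgm1, Gbp7 and Ifi47 led with means of 19.0 to 21.7 CPM, which lie within one another's spread. In 3W-PSCs, Iigp1 had the highest mean with 199 ± 33.1 CPM (SD, n = 4), then Gbp3 with 158 ± 30.5, Gbp2 with 138 ± 10.2 and Gbp7 with 132 ± 15.5. These 3 GBPs overlapped. Iigp1 overlapped with Gbp3 as well, and in 3W-PSC replicate 1 Gbp3 had 196 CPM and Iigp1 187 CPM. Iigp1 made up 8.82% of the summed level in mono-PSCs and 21% in 3W-PSCs, while Irgm1 went from 15.3% to 6.07%. By class, GMS regulators held 39.9% of the sum in mono-PSCs, 36.5% in 2W-PSCs and 22.2% in 3W-PSCs, and GBPs 36.8%, 36.1% and 46.2%. Across the 12 libraries, the log2 level of each gene correlated with the mean of the other 9 at r = 0.887 to 0.970, except Tgtp1 at 0.267. The libraries share 3 cultures, so this restates the difference between cultures in part.

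Genes with the most similar pattern were sought among 8692 non-member genes with a mean log2 CPM above 3, by Pearson's r over the 12 libraries with the mean standardised level of the members. The 10 closest were Ifih1 (r = 0.990), Trim30a, Ifi44, Ifit1, Zbp1, Ifi204, Samd9l, Rsad2, Psmb8 and Ddx60 (r = 0.975), most of them long known as interferon-stimulated genes. Just below came Osmr at rank 11 (r = 0.974), and Tnfaip2, Ccl7 and Timp1 ranked 15, 33 and 40 (r = 0.970, 0.955 and 0.951). Since the members were chosen with these levels known, the ranking restates in part which genes were high in 3W-PSCs. Ifih1, a sensor of double-stranded RNA, had 32.2 ± 1.86 CPM in mono-PSCs, 45.2 ± 4.05 in 2W-PSCs and 93.4 ± 8.69 in 3W-PSCs (SD, n = 4). Zbp1, a sensor of Z-form nucleic acid, had 1.36 ± 0.390, 6.85 ± 4.42 and 84.4 ± 10.4 CPM. Rsad2, the antiviral protein viperin, had 11.8 ± 2.13, 16.1 ± 3.71 and 103 ± 19.96 CPM. Psmb8, a subunit of the immunoproteasome, went from 3.42 ± 1.499 to 6.02 ± 1.80 and 47.1 ± 5.63 CPM.

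Of 22 further GBP, IRG, very large inducible GTPase (GVIN) and Mx genes listed for comparison, 21 had a row and 14 had at least 10 counts in some library. These genes and the pathway genes below were listed with earlier results of these data known, so their counts of calls are a description. Between 3W-PSCs and 2W-PSCs 9 were tested, with a median log2 fold change of 2.09. The fit called 4 higher and none lower, against 5.73% and 4.95% of all genes tested. These 4 were Gm12250 (Irgb10), a GKS IRG that ruptures bacterial membranes, Gm4951, F830016B08Rik and Mx2, a dynamin-like antiviral GTPase. Gm12250 rose from 1.41 to 5.15 CPM in 2W-PSCs to 16.0 to 30.9 CPM in 3W-PSCs, by 2.66 ± 0.389 log2 units (edgeR adjusted p = 0.00183), and stood at 0 to 1.94 CPM in mono-PSCs. Gm4951 rose from 0.736 to 7.04 CPM to 20.9 to 32.2 CPM, by 2.61 ± 0.509 log2 units (edgeR adjusted p = 0.00876). Mx2 rose from 12.6 to 21.03 CPM to 37.5 to 51.2 CPM (1.35 ± 0.230, edgeR adjusted p = 0.00464). For these 3 and for F830016B08Rik, which had at most 2 counts in any library outside 3W-PSCs and 3.95 to 6.63 CPM within, all 4 libraries of 3W-PSCs lay above all of 2W-PSCs.

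Against mono-PSCs, 8 of 9 tested were called higher in 3W-PSCs, where 13.4% of all genes were: these 4 with Gbp6, Gbp9, 9930111J21Rik2 and Mx1. Gbp9 had 0.351 to 1.09 CPM in mono-PSCs and 2.55 to 5.67 CPM in 3W-PSCs (2.55 ± 0.525, edgeR adjusted p = 0.00159). Gbp6, whose row in the table is named Gm43302 in the newer annotation, had 0 to 1.40 CPM and 2.73 to 5.98 CPM (2.80 ± 0.626, edgeR adjusted p = 0.00300). All 75-base windows at the end of the Gbp6 transcript and 60.9% of those of 9930111J21Rik2 recur in related genes, so these 2 rows are uncertain, and 9930111J21Rik2 was not called without 3W-PSC replicate 2. The remaining tested gene, Irgq, an IRG-like gene, had 6.64 to 11.6 CPM in 3W-PSCs and 3.92 to 8.95 CPM in mono-PSCs (0.40 ± 0.326, edgeR adjusted p = 0.397). Between 2W-PSCs and mono-PSCs edgeR called 0 of 4 tested, where 0.839% of all genes were called higher, and DESeq2 called 0 as well. At an unadjusted edgeR p under 0.05, 2 of the 4 were higher, as were 552 of all 11199 genes tested. Mx2 had the larger number of counts of those 2, at 1.05 ± 0.290 log2 units (edgeR adjusted p = 0.155). Gbp4, Tgtp2, Gvin1, Gm4070 and 9930111J21Rik1 stayed at or below 20 counts in each library, and their transcript ends share windows with related genes.

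The ligands of the pathway had few or no counts in the PSCs. Of 20 interferon genes, 18, Ifng and Ifnb1 among them, had no count in any library, which allows up to 0.347 to 0.736 CPM per library (3 counts, counting error only). Ifnz reached 6 counts and Ifne 1. The identifiers of 3 rows without a count, Ifna6, Ifna11 and Ifnab, are absent from the newer annotation. Shared transcript ends were not searched for the interferon genes and the setting for reads with several matches is not given, so related genes may be undercounted. RNA of the partner cells was not sequenced here, and no interferon protein was measured.

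Of 7 receptor and kinase genes, 2 passed as higher from 2W-PSCs to 3W-PSCs and none as lower, against 5.73% and 4.95% of all genes. The median log2 fold change of the 7 was 0.66. Ifnar2, a chain of the type I interferon receptor, rose from 26.9 to 33.1 CPM to 59.7 to 73.5 CPM, by 1.09 ± 0.162 log2 units (edgeR adjusted p = 0.00199). Jak2, the kinase bound to the IFN-γ and many cytokine receptors, rose from 20.4 to 30.1 CPM to 57.5 to 119 CPM, by 1.73 ± 0.246 (edgeR adjusted p = 0.00157). All 4 3W-PSC libraries lay above all 2W-PSC libraries for both. Ifngr2 had 0.66 ± 0.198 (edgeR adjusted p = 0.0572) against 2W-PSCs and was called higher against mono-PSCs with 1.12 ± 0.153 (edgeR adjusted p = 3.79e-05). Ifnar1 was called higher against mono-PSCs with 0.75 ± 0.263 (edgeR adjusted p = 0.0425), but its libraries overlapped, and the call held in 8 of 14 alternative fits and was lost without 3W-PSC replicate 2 or 3 or mono-PSC replicate 2, 3 or 4. Ifngr1, the ligand-binding chain for IFN-γ, ranged over 46.3 to 83.5 CPM (mono-PSCs), 72.8 to 102 CPM (2W-PSCs) and 69.3 to 97.8 CPM (3W-PSCs), and Ifngr1, Jak1 and Tyk2 were not called in any comparison.

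Of 9 transcription factor genes, 7 were tested and 5 called higher from 2W-PSCs to 3W-PSCs, against 5.73% of all genes tested. The median log2 fold change of the 7 was 1.11. Stat2, a part of the factor that binds ISREs, rose by 1.19 ± 0.156 (edgeR adjusted p = 9.36e-04), Irf7 by 1.43 ± 0.216 (edgeR adjusted p = 0.00222) and Nlrc5, a regulator of MHC class I genes, by 3.91 ± 0.739 from under 1 CPM (edgeR adjusted p = 0.00746). Irf1, which drives GBP genes in many cell types, had 142 to 167 CPM in 3W-PSCs and 32.6 to 100 CPM in 2W-PSCs (1.11 ± 0.273, edgeR adjusted p = 0.0262). Its call held in 9 of 14 alternative fits and was lost without 2W-PSC replicate 1 or any single 3W-PSC library. Irf9 had 137 to 187 CPM in 3W-PSCs and 132 to 187 CPM in 2W-PSCs (0.04 ± 0.181, edgeR adjusted p = 0.907). Relative to mono-PSCs, edgeR called all 7 tested higher in 3W-PSCs, against 13.4% of all genes. In 2W-PSCs it called none of 6 tested, against 0.839%, though DESeq2 called 1. At an unadjusted edgeR p under 0.05, 3 of the 6 were higher, as were 552 of all 11199 genes tested.

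Of 8 feedback inhibitor genes, Usp18 and Socs3 were called higher from 2W-PSCs to 3W-PSCs, where 5.73% of all genes tested were. Usp18, which removes ISG15 and blocks the type I receptor, was the single gene of the pathway lists called between 2W-PSCs and mono-PSCs. Its level was 9.65 to 16.6 CPM in mono-PSCs, then 32.3 to 48.6 CPM (2W-PSCs) and 49.4 to 94.1 CPM (3W-PSCs). The cultures did not overlap, with steps of 1.55 ± 0.244 (edgeR adjusted p = 0.00760) and 0.87 ± 0.216 (edgeR adjusted p = 0.0280). Socs3 rose by 2.02 ± 0.546 from 2W-PSCs to 3W-PSCs (edgeR adjusted p = 0.0386), and Socs1, an inhibitor of JAK kinases, had 1.59 ± 0.600 (edgeR adjusted p = 0.118). The Usp18 call between 3W-PSCs and 2W-PSCs held in 9 of 14 alternative fits and was lost without 2W-PSC replicate 1 or 3 or 3W-PSC replicate 1, 3 or 4. That of Socs3 held in 6 of 13 and was lost without 2W-PSC replicate 1 or 4 or any single 3W-PSC library.

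Genes for proteins that steer GBPs and IRGs to vacuoles were called in both directions. Of 15 genes for ATG8 conjugation and ubiquitin ligases, 14 were tested between 3W-PSCs and 2W-PSCs, with a median log2 fold change of -0.21. In 3W-PSCs 3 were called higher and 3 lower, against 5.73% and 4.95% of all genes tested. Rnf213, a giant ubiquitin ligase that coats bacteria and vacuoles, rose from 27.5 to 50.6 CPM to 144 to 221 CPM (2.19 ± 0.216, edgeR adjusted p = 1.66e-04). Trim21 rose by 1.22 ± 0.315 (edgeR adjusted p = 0.0319) and Atg7, the enzyme that activates ATG8 proteins, by 0.80 ± 0.221 (edgeR adjusted p = 0.0416). The ATG8 genes Map1lc3a, Map1lc3b and Gabarapl1 fell, by 0.94, 0.58 and 0.61 on the log2 scale (edgeR adjusted p = 0.0165, 0.0494 and 0.0352), with all 4 3W-PSC libraries below all 2W-PSC libraries. Apart from Rnf213, these calls were lost without some single libraries, among them 3W-PSC replicates 1 and 2 in each case, and that of Map1lc3b held in 4 of 14 alternative fits. Against mono-PSCs, Gabarap, Gabarapl2 and the adaptor Sqstm1 were called lower as well, the last in 6 of 14 alternative fits. Of 6 genes for prenylation, the lipid modification that anchors Gbp2 and Gbp5, none was called between 3W-PSCs and 2W-PSCs by edgeR, 0 had an unadjusted p under 0.05 and DESeq2 called 0. Between 3W-PSCs and mono-PSCs Fnta was lower by -0.97 ± 0.160 (edgeR adjusted p = 2.34e-04) and Icmt higher by 1.15 ± 0.346 (edgeR adjusted p = 0.0201). The libraries of these 2 cultures overlapped for Icmt, and its call held in 10 of 14 alternative fits and was lost without 3W-PSC replicate 2 or mono-PSC replicate 3 or 4.

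Of 8 genes acting downstream in inflammasomes and pyroptosis, 4 were tested. Casp4, the mouse caspase-11 that binds bacterial lipopolysaccharide which GBPs expose, was at 0.605 to 4.31 CPM in mono-PSCs, at 3.38 to 7.11 in 2W-PSCs and at 49.3 to 80.0 in 3W-PSCs. It rose by 3.74 ± 0.286 log2 units from 2W-PSCs to 3W-PSCs (edgeR adjusted p = 4.00e-05), with no overlap. Its target Gsdmd had 23.1 to 27.1 CPM in 2W-PSCs and 28.1 to 41.4 CPM in 3W-PSCs (0.49 ± 0.188, edgeR adjusted p = 0.120). Casp1 had at most 5 counts and Nlrp3 at most 12 counts in any library.

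**Figure D5:**
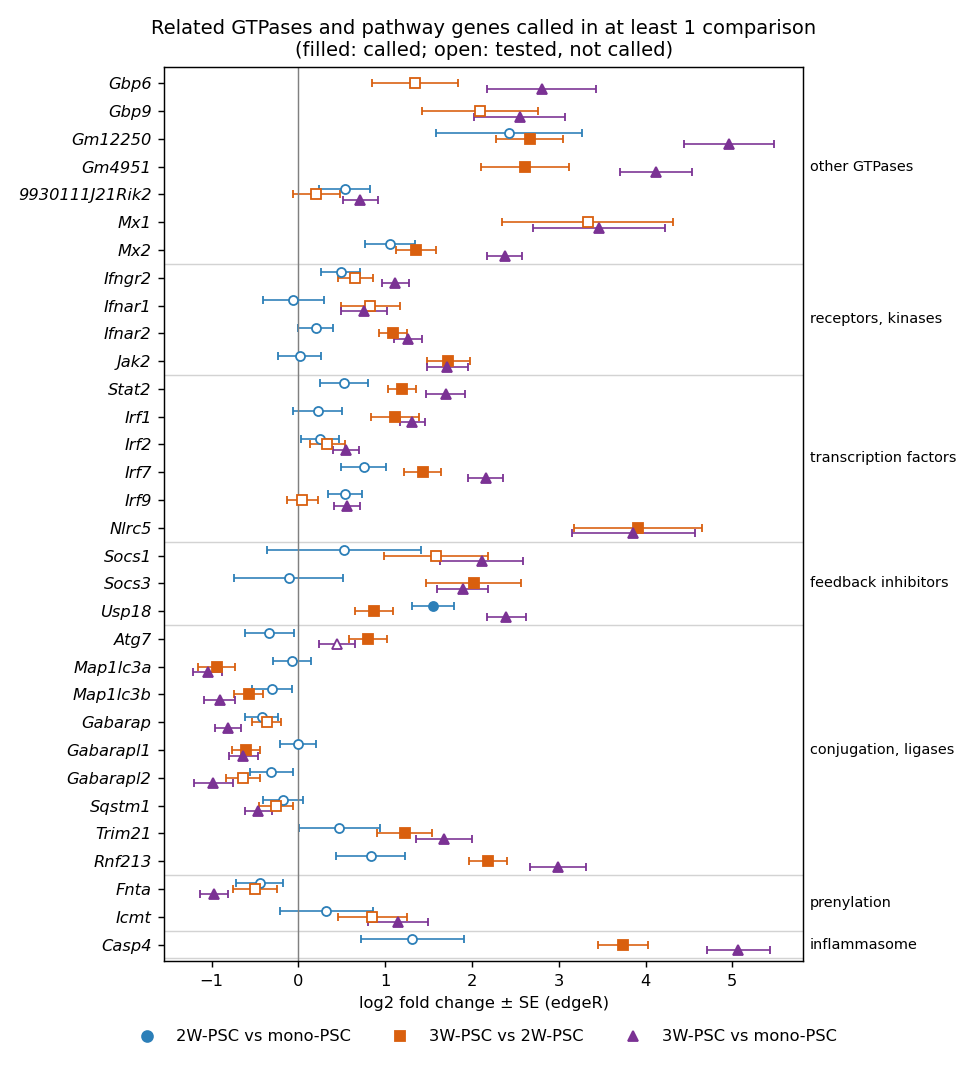
Points give the log2 fold change from edgeR with its SE as bars for the listed genes other than the 10 members that were called in at least 1 comparison, filled where called, with blue circles for 2W-PSC vs mono-PSC, orange squares for 3W-PSC vs 2W-PSC and purple triangles for 3W-PSC vs mono-PSC. Casp4 reaches 3.74 between 3W-PSCs and 2W-PSCs, and the ATG8 genes lie below 0. F830016B08Rik, with at most 2 counts outside 3W-PSCs, and a gene not reported here are not drawn.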

How the data were processed

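RNA of mCherry-sorted PSCs was made into 3′ libraries with the QuantSeq 3′ FWD kit and sequenced single-end. The authors checked the reads with FastQC, aligned them to GRCm38 with STAR and ran featureCounts on Ensembl genes, and the deposited values are raw counts of 39179 genes in 12 libraries, 4 per culture. The settings for strand, reads with several matches and molecular identifiers are not given in the sources used here, so PCR copies may be counted, and intervals and floors cover counting error only. No column was left out. The members and all gene lists were chosen with earlier results of these data known.

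Each pair of cultures was fitted with edgeR 4.0.16 in R 4.3.3 (TMM, filterByExpr, quasi-likelihood test, no replicate block), with Benjamini-Hochberg adjustment over all genes tested and a call at an adjusted p under 0.05. The SE is the log2 fold change divided by the square root of F, and the prior count was 0.125. CPM used TMM factors over all 12 libraries. Alternatives were DESeq2 1.42.0, its size factors in edgeR, no filter, at least 10 counts in every library, a joint fit of all libraries, a replicate block, an added log2 cut of 1, a prior count of 2 and leaving out each library in turn. The labels call the 4 libraries of a culture biological replicates, all of 1 clone. Same-numbered 2W-PSC and mono-PSC libraries deviated together from their means, with correlations over genes of 0.102 to 0.338. The numbers were therefore taken to pair these 2 cultures, but the fold changes, SEs and calls of the main fits do not use the pairing. The block changed neither the count of members called nor that of the other lists there. With it the edgeR adjusted p went from 0.039 to 0.00958 for Gbp3 and from 0.382 to 0.0719 for Igtp. For Irgm1 it went from 0.101 to 0.114 and for Iigp1 from 0.104 to 0.127. The fits were tested on simulated counts.

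All 10 members were named, together with listed GTPase genes with at least 10 counts in some library, pathway genes called in a comparison, Ifng, Ifnb1 and the 10 genes most like the members. Other pathway genes named with values, such as Ifngr1, Jak1, Tyk2, Gsdmd, Casp1, Nlrp3, Ifnz and Ifne, were chosen after their values were seen. Promoters and motif matches came from RefSeq on GRCm38.p6, gene positions and shared transcript ends from GENCODE M21 on GRCm38. A detail of the PCC line and the values of a listed transcription factor gene are not reported here, though list counts include that gene.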

Additional observations from a re-analysis of the deposited data

Results flagged for a closer look

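Within each culture of 4 libraries, the highest or lowest library was set against the rest by Dixon's ratio for the members and the listed genes. Of 139 groups, 9 had a library far from the other 3, and chance alone flags about 1 in 20. Among the members, Irgm1 was low in mono-PSC replicate 3 at 17.0 CPM, against 21.2 CPM in the next library. Igtp was low in mono-PSC replicate 1 at 11.4 CPM, against 23.9 CPM. Iigp1 was high in 3W-PSC replicate 4 at 249 CPM, against 187 CPM, and that library also had the highest sum of macrophage markers, 65.6 CPM. Among 3W-PSC libraries it also had the highest level of Irgm2 and Ifi47, at 68.6 and 118 CPM. It had the lowest of Gbp2, at 126 CPM, and the other members lay between. The part of the macrophage markers was not tested. Among genes with few counts, Gbp4 was high in 2W-PSC replicate 2 at 1.72 CPM, 9930111J21Rik1 in mono-PSC replicate 1 at 1.05 CPM, and Mx1 in mono-PSC replicate 3 at 1.24 CPM and in 2W-PSC replicate 3 at 1.59 CPM. In 2W-PSC replicate 2, Sqstm1 was high at 903 CPM and Fnta low at 46.1 CPM.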

How the results depend on the processing

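No fold change of a member or of a listed gene called reversed its direction under the alternatives, and of 1185 recomputed values 1094 stayed on their side of the threshold, 80 fell below it and 11 passed it. The 1094 include the values with a prior count of 2, which could not cross, since that setting changes the fold change and not the p. The members called higher between 2W-PSCs and mono-PSCs, 1 in the main analysis, numbered 2 with no filter, 0 with at least 10 counts in every library, 3 in the joint fit and 3 with DESeq2. Leaving out a library gave 0 to 4, with 4 without 2W-PSC replicate 2 and 0 without mono-PSC replicate 1, 2 or 3 or 2W-PSC replicate 1, 3 or 4. Between 3W-PSCs and 2W-PSCs it gave 8 to 9 members, and 9 between 3W-PSCs and mono-PSCs. Over all genes, the 111 calls between 2W-PSCs and mono-PSCs became 177 with no filter, 57 with at least 10 counts, 262 in the joint fit, 275 with DESeq2 and 61 to 233 without a library. The 1230 calls between 3W-PSCs and 2W-PSCs became 752 with the replicate block, 672 with a log2 cut of 1 and 497 to 2107 without a library, the highest without 2W-PSC replicate 2 and the lowest without 3W-PSC replicate 2. The 3054 calls between 3W-PSCs and mono-PSCs became 1380 with the log2 cut and 2228 to 4266 without a library. Other GTPase genes called higher numbered 1 instead of 0 between 2W-PSCs and mono-PSCs in the joint fit, and with at least 10 counts in every library 2 instead of 4 between 3W-PSCs and 2W-PSCs and 2 instead of 8 between 3W-PSCs and mono-PSCs, where fewer of these genes were tested. Without a library they numbered 0, 4 to 6 and 7 to 8 in the 3 comparisons. Pathway genes called higher between 2W-PSCs and mono-PSCs numbered 2 instead of 1 with DESeq2 and 1 to 2 without a library, and without a library 8 to 16 instead of 13 between 3W-PSCs and 2W-PSCs and 16 to 19 instead of 18 between 3W-PSCs and mono-PSCs. Pathway genes called lower between 3W-PSCs and 2W-PSCs, 3 in the main analysis, numbered 1 with no filter, 1 with the replicate block, 0 with the log2 cut and 0 to 7 without a library, and between 3W-PSCs and mono-PSCs, 7 in the main analysis, 1 with the log2 cut and 6 to 8 without a library. The cause of these shifts was not tested. Same-numbered libraries deviated together by a correlation over 0.1 in 6 of 12 pairs across all 3 comparisons, those of 2W-PSCs and mono-PSCs among them, and with the replicate block the members called in that comparison stayed at 1 and all genes at 135. At this depth, no difference could be read for genes with a few counts, such as Tgtp1.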
